A study of Homo sapiens with 9 samples.

Results

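The chaperones that fold proteins in the lumen of the endoplasmic reticulum (ER) with ATP, and the proteins that regulate them, were followed in VCaP, a cell line established from prostate cancer, after transfection with siRNA against CDO1. The 10 genes were picked by symbol: HSPA5, HSP90B1, HYOU1, SIL1, SDF2L1, DNAJB9, DNAJB11, DNAJC3, DNAJC10 and HSPA13. Each of the 10 symbols occurred among the 58735 genes of the count table, and all 10 were among the 15555 genes that passed the filter on low counts. RNA was sequenced after a control siRNA (siCtrl) or either of a pair of siRNAs targeting CDO1 (siCDO1A and siCDO1C), with 3 libraries for each condition. CDO1 encodes cysteine dioxygenase, which oxidizes cysteine. All 9 libraries came from cells grown in medium with 10% serum and 2 nM DHT, an androgen, so that no group was without androgen. The siCtrl libraries carry the genotype label WT and the siRNA libraries are labelled as CDO1 knockdown. The labels call the libraries biological replicates and give each a batch number from 1 to 3 that equals its replicate number, but do not say whether separate cultures were used, so that p-values measure the spread between these libraries. A single cell line was used.

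HSPA5 (BiP) is the HSP70 of the ER lumen. It binds unfolded stretches of newly made proteins and releases them in a cycle of ATP binding and hydrolysis. J-proteins bring clients to it and speed up hydrolysis, nucleotide exchange factors free it of ADP, and HSP90B1 (GRP94) takes over a narrower set of clients at a later stage. When unfolded proteins accumulate, the unfolded protein response (UPR), sensed by IRE1, PERK and ATF6, raises the transcription of many of these genes. Prostate epithelium is a secretory tissue, and its cells send large amounts of protein through the ER.

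The total count was 12554626 to 16073698 in siCtrl libraries, 12282668 to 15239414 in siCDO1A libraries and 12061295 to 14537158 in siCDO1C libraries. In these, 3 counts correspond to 0.187 to 0.249 CPM (counts scaled to a common library total) over the deposited totals, a limit for counting error only. The lowest count of any of the 10 genes in a library was 191, for DNAJB9. All other CPM levels given here were scaled by the TMM method. CDO1 was at 13.6 to 14.2 CPM in siCtrl, 2.05 to 3.28 CPM in siCDO1A and 1.09, 2.81 and 1.15 CPM in siCDO1C replicates 1, 2 and 3. This was a reduction of 82.1% ± 4.83 (SD, n = 3) with siCDO1A and of 87.9% ± 6.98 (SD, n = 3) with siCDO1C, with no overlap with siCtrl (exact permutation test, two-sided, p = 0.1 with either siRNA, the smallest that 3 libraries against 3 allow). One siCDO1C library, replicate 2, stood apart: the chi-square per degree of freedom of its gene counts was 12.2 against either of the other siCDO1C libraries, while it was 2.57 between those and 2.41 to 5.73 within the other groups. Without it the reduction of CDO1 with siCDO1C was 91.9%, and the siCDO1C values of the 10 genes are also given without it. All 11 markers of prostate epithelium and VCaP were above 1 CPM, and their summed level was 6590 to 6740 CPM in siCtrl, 7410 to 7800 in siCDO1A and 6930 to 7100 in siCDO1C. Of the fibroblast markers 2 of 5 were above 1 CPM (13.9 to 22.9 CPM in sum over all libraries, COL1A2 at 0), of the endothelial markers 1 of 4 (at most 3.36 CPM in sum, CDH5 at 0) and of the immune markers 0 of 5. The part that the shift of the prostate markers has in the results was not tested. In RNA from whole cultures, fewer cells of a kind and less RNA per cell cannot be told apart.

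Several of these genes carry known UPR elements in their promoters, which are shown here because they group the 10 genes in a way that does not use their levels. The windows were those of RefSeq on GRCh38.p14, from 250 bases before to 50 bases after the annotated start, and all 10 genes had one. Both strands were searched. The ER stress element (ERSE, the letters CCAAT, any 9 bases and CCACG) was found in HSPA5 and, in 2 places, in HSP90B1. In the lines that follow capitals mark the letters that were searched, and each run is written 5′ to 3′ in the direction of the element.
HSPA5, minus strand, chr9:125241388-125241412: tcaCCAATcggcggcctCCACGacg
HSP90B1, plus strand, chr12:103930213-103930237: tgaCCAATcggaaggagCCACGctt
HSP90B1, minus strand, chr12:103930318-103930342: ccaCCAATcgcgccgcaCCACGcac

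The matches begin 66 bases before the start of HSPA5 and 194 and 89 bases before that of HSP90B1. Among 34796 distinct windows, 27 (0.0776%) held the ERSE. The related ERSE-II (the letters ATTGG, any 1 base and CCACG), which was in 19 windows (0.0546%), was found in 2 places in HYOU1 and once in SDF2L1.
HYOU1, plus strand, chr11:119057377-119057393: gggATTGGaCCACGtca
HYOU1, plus strand, chr11:119057271-119057287: ctcATTGGaCCACGtcc
SDF2L1, minus strand, chr22:21642111-21642127: ttgATTGGtCCACGctt

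The UPRE letters TGACGTGG were in 255 windows (0.733%), those of DNAJC10 and HYOU1 included. In HYOU1 they overlap the first of its ERSE-II matches. The cyclic AMP response element TGACGTCA, which was in 641 windows (1.84%), was in none of the 10. SIL1, DNAJB9, DNAJB11, DNAJC3 and HSPA13 had none of these 4 sets of letters, which says only that the letters are not in this window.

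In siCtrl cells the levels per gene length (TPM, from the deposited gene lengths) spread over a wide range. HSP90B1 at 1696 ± 26.7 TPM and HSPA5 at 1574 ± 22 TPM (SD, n = 3) were far above the others. HYOU1 at 190 ± 3.17, SDF2L1 at 178 ± 18 and HSPA13 at 142 ± 10.7 TPM followed, and the libraries of HYOU1 and SDF2L1 overlapped. DNAJC3 at 39.3 ± 1.12, SIL1 at 35.5 ± 3.21, DNAJB11 at 35.1 ± 1.97, DNAJB9 at 32.2 ± 3.02 and DNAJC10 at 28.2 ± 0.8 TPM were lowest, and within these each gene from SIL1 on overlapped the next. The place of DNAJC10 rests on a deposited length of 21835 bases, the longest of the 10. HSPA5 and HSP90B1 together made up 76.8% to 80.3% of all counts of the 10 genes. The 10 genes summed to 4567 ± 23.1 CPM (SD, n = 3) in siCtrl, 4100 ± 80.2 CPM in siCDO1A and 3321 ± 310 CPM in siCDO1C. As a share of the library, this was 0.458% to 0.46% in siCtrl, 0.399% to 0.414% in siCDO1A and 0.307%, 0.364% and 0.327% in siCDO1C replicates 1, 2 and 3, so that the 3 groups did not overlap.

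**Figure D1:**
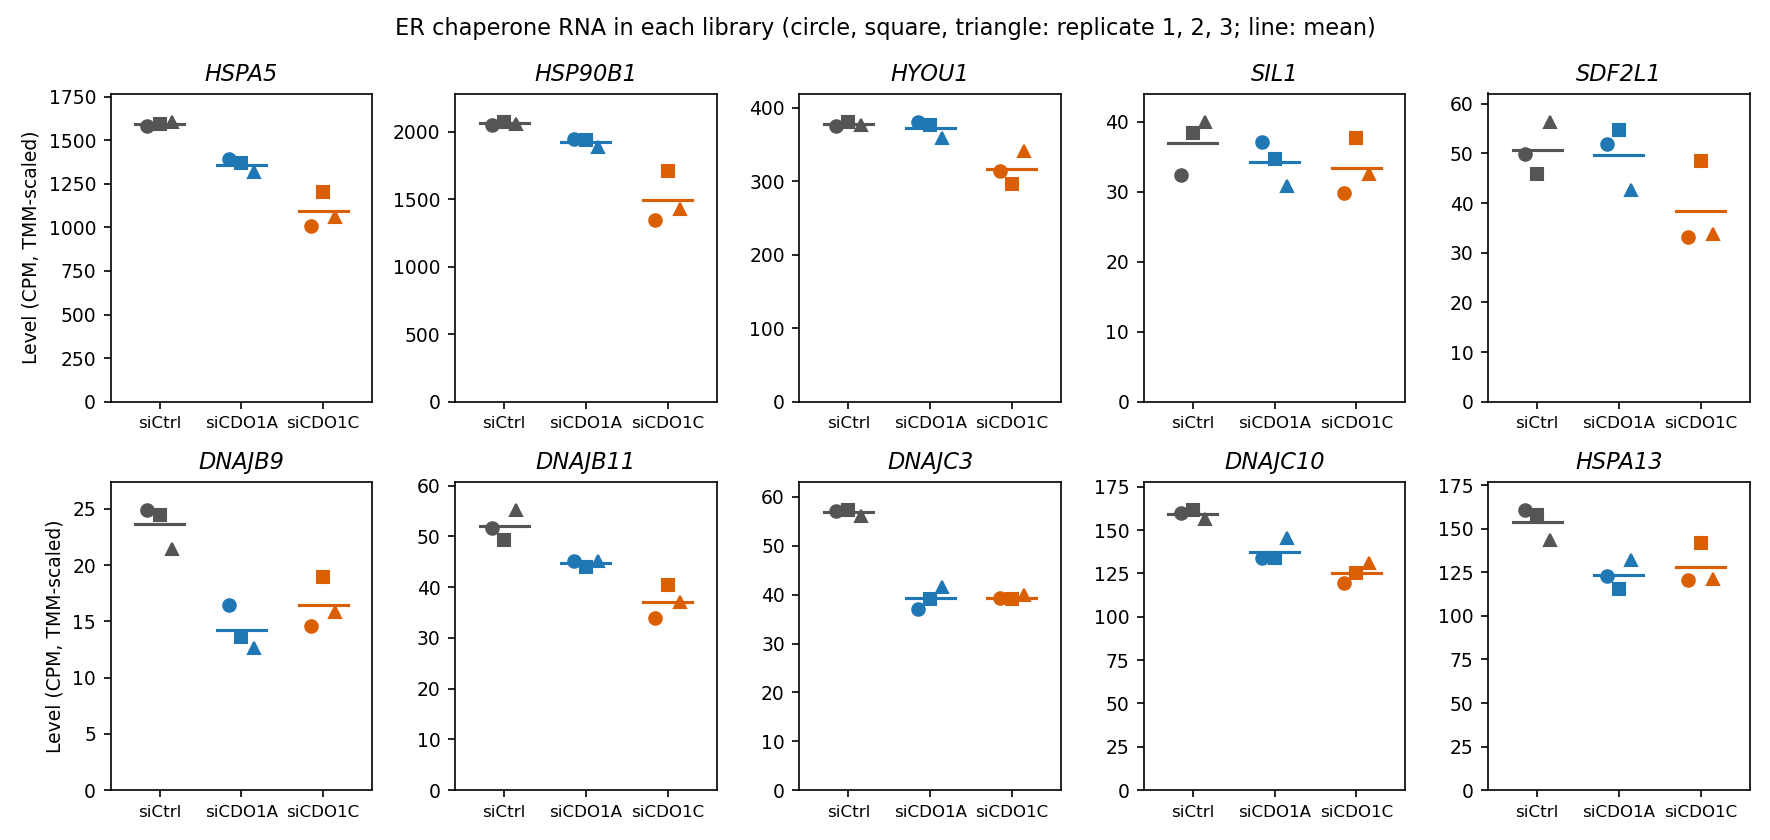
Level of each of the 10 genes in each library, in CPM after TMM scaling on a linear axis from 0, by condition (circle, square and triangle for replicates 1, 2 and 3, line for the mean of 3 libraries). HSPA5 steps down from siCtrl to siCDO1A to siCDO1C, and DNAJC3 is at 39.2 and 39.4 CPM on average with the siRNAs. The highest library of the siCDO1C group is replicate 2 for HSPA5, HSP90B1, SIL1, SDF2L1, DNAJB9, DNAJB11 and HSPA13, but not for HYOU1, DNAJC3 and DNAJC10.

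Both siRNAs were set against siCtrl with edgeR's quasi-likelihood test, adjusted over all genes tested, and an adjusted p of at most 0.05 was called a change. With siCDO1A, 6 of the 10 genes were lower and 0 higher, where 7.48% of all genes tested were lower. With siCDO1C, 6 of 10 were lower and 0 higher, against 2.50% of all genes. The genes lower with both were HSPA5, DNAJB9, DNAJB11, DNAJC3 and DNAJC10 (5 of 10, against 1.72% of all genes). HSPA13 was lower with siCDO1A and HSP90B1 with siCDO1C, while HYOU1, SIL1 and SDF2L1 passed in neither comparison. The median log2 fold change of the 10 genes was -0.22 with siCDO1A and -0.44 with siCDO1C, where it was 0.010 and close to 0 for all genes tested. Libraries did not overlap with siCtrl, on the lower side, for 7 of 10 genes with siCDO1A (15.4% of all genes) for 8 of 10 with siCDO1C (12.0%), and for 7 of 10 with both (7.36%). SDF2L1 and SIL1 overlapped in both comparisons and HYOU1 in the first. The comparisons share the siCtrl libraries. With the replicate number as a block, 3 genes were lower with both siRNAs (HSPA5, DNAJB9 and DNAJC3, against 1.25% of all genes), and the first comparison lost DNAJB11 and DNAJC10. Without siCDO1C replicate 2, 9 of the 10 genes were lower with siCDO1C, all but SIL1, and 6 were lower with both, but the shares of all genes were then also higher, at 6.52% lower with siCDO1C and 3.18% lower with both.

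**Figure D2:**
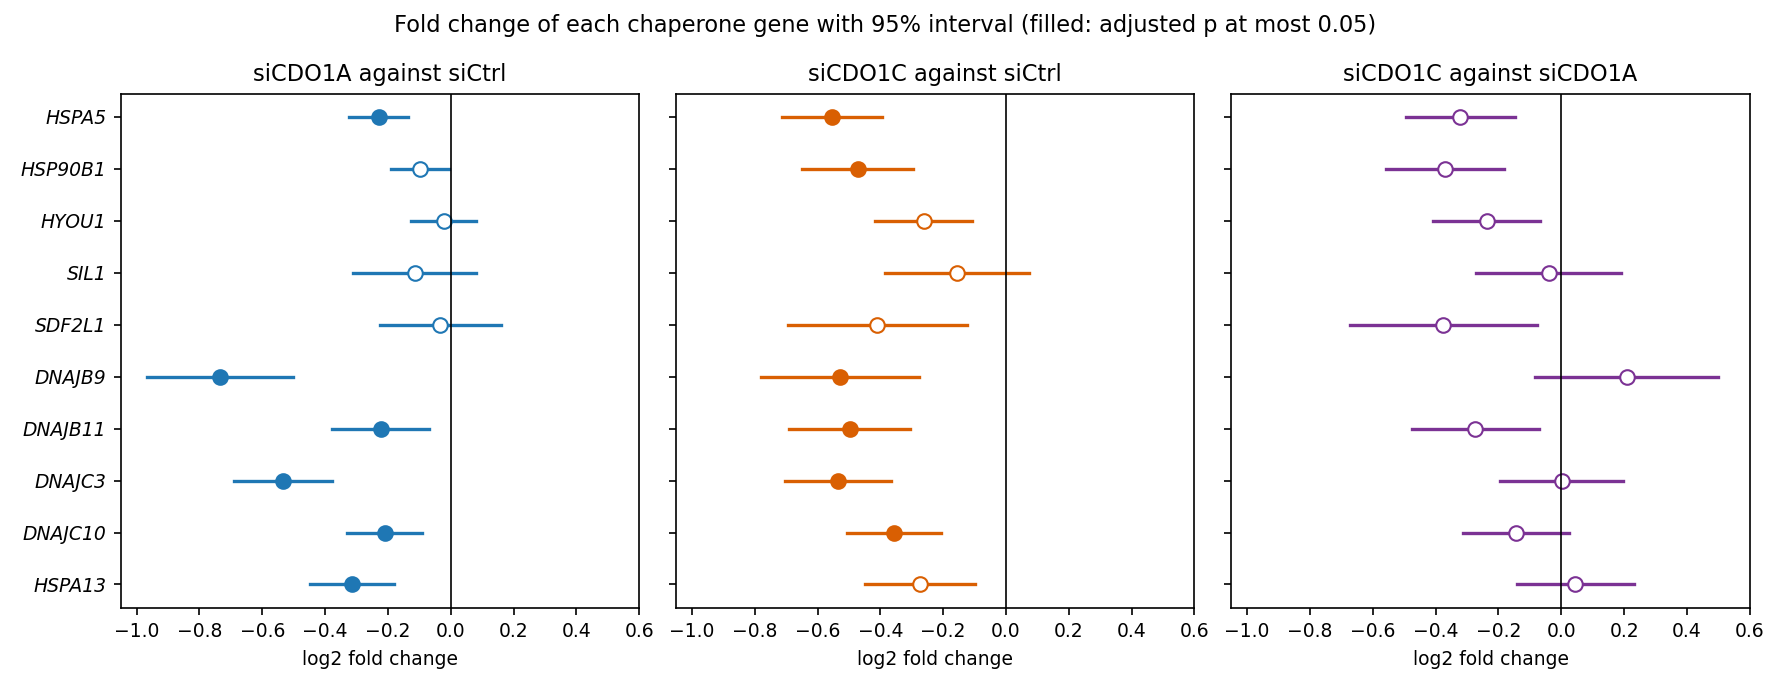
Log2 fold change of each gene in the 3 comparisons with its 95% interval from edgeR (3 libraries against 3, filled points for an adjusted p of at most 0.05). With siCDO1A the J-proteins DNAJB9 (-0.74) and DNAJC3 (-0.53) lie lowest, with siCDO1C 5 of the 6 filled points lie between -0.47 and -0.55, and no point is filled in the comparison of the siRNAs.

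HSPA5 (ENSG00000044574, chromosome 9, 125234853 to 125241330, GRCh38), the HSP70 on which the J-proteins act, was at 1580, 1592 and 1607 CPM in siCtrl replicates 1, 2 and 3. It was at 1393, 1367 and 1315 CPM in siCDO1A and at 1006, 1205 and 1062 CPM in siCDO1C. The 3 groups lay apart without overlap, in this order. HSPA5 fell by 14.7% with siCDO1A (log2 fold change -0.23, SE 0.0457, edgeR adjusted p = 0.00173) and by 31.9% with siCDO1C (-0.55, SE 0.0752, adjusted p = 6.64e-04). Within batches 1, 2 and 3 the log2 ratio to siCtrl was -0.18, -0.22 and -0.29 with siCDO1A and -0.65, -0.40 and -0.60 with siCDO1C. Without siCDO1C replicate 2, which had the highest HSPA5 of its group, the log2 fold change with siCDO1C was -0.63 (adjusted p = 1.1e-11). HSPA5 was called with both siRNAs in every alternative analysis that was run.

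HSP90B1 (ENSG00000166598, chromosome 12, 103930107 to 103953645), the HSP90 of the ER, was at 2049, 2077 and 2061 CPM in siCtrl, 1950, 1941 and 1888 CPM in siCDO1A, and 1346, 1709 and 1430 CPM in siCDO1C. Its groups did not overlap either, but the step from siCtrl to siCDO1A was small. With siCDO1A the log2 fold change was -0.099 (95% interval -0.19 to -0.0066), which did not pass (edgeR adjusted p = 0.146). With siCDO1C the gene fell by 27.9% (log2 fold change -0.47, SE 0.0831, adjusted p = 0.00396), and by 0.58 on the log2 scale without replicate 2 (adjusted p = 5e-11). Genes on the other strand overlap its body, and the larger of these, C12orf73, had 2537 counts in all against 226074 of HSP90B1. A pseudogene, HSP90B2P, had 76.

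HYOU1 (GRP170, ENSG00000149428, chromosome 11, 119044189 to 119057202) is a large HSP70-like protein that exchanges the nucleotide of HSPA5 and also holds unfolded proteins itself. It was at 376, 381.5 and 377 CPM in siCtrl, 381, 377 and 359 CPM in siCDO1A, and 313.5, 296 and 341 CPM in siCDO1C. The siCtrl and siCDO1A libraries overlapped, and all siCDO1C libraries lay below both, with replicate 2 the lowest here. The log2 fold change was -0.023 with siCDO1A (95% interval -0.13 to 0.080, edgeR adjusted p = 0.808) and -0.26 with siCDO1C (95% interval -0.42 to -0.11), just short of the threshold (adjusted p = 0.0513). DESeq2, the edgeR fit of all 9 libraries and the fit without siCDO1C replicate 2 (-0.21, adjusted p = 0.00332) put HYOU1 past it. So did some other settings. It was not called with the replicate block (edgeR adjusted p = 0.0902), another scaling or at least 10 counts in every library. Nor was it called without siCDO1C replicate 1 or any 1 siCtrl library. Over all single libraries left out, the siCDO1C value ran from -0.32 to -0.21, with an edgeR adjusted p of up to 0.224.

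SIL1 (ENSG00000120725, chromosome 5, 138946720 to 139293557), the second nucleotide exchange factor of HSPA5, was at 32.4, 38.4 and 40.05 CPM in siCtrl, 37.1, 34.7 and 30.9 CPM in siCDO1A, and 29.9, 37.7 and 32.5 CPM in siCDO1C. All 3 groups overlapped. The log2 fold change was -0.12 with siCDO1A (95% interval -0.31 to 0.080, edgeR adjusted p = 0.464) and -0.16 with siCDO1C (95% interval -0.39 to 0.072, adjusted p = 0.482, and without replicate 2 -0.25 and 0.0753), so that a reduction of the size seen for HSPA5 with siCDO1A lies within both intervals. Over all single libraries left out, the siCDO1C value ran from -0.25 to -0.074, with an edgeR adjusted p of up to 0.818. SNHG4, a noncoding RNA gene on the opposite strand whose body overlaps SIL1, had 5479 counts in all against 4302 of SIL1 and was higher with both siRNAs (log2 fold change 0.62, adjusted p = 5.49e-05, and 0.49, adjusted p = 0.0079). The strand setting of the counting is not given in the sources used here, and the part of such reads in the counts of SIL1 was not tested.

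HSPA13 (STCH, ENSG00000155304, chromosome 21, 14371115 to 14383484), an HSP70-like ATPase of microsomes that lacks the peptide-binding part of the family, was at 161, 158 and 143 CPM in siCtrl, 123, 115 and 132 CPM in siCDO1A, and 120.5, 142 and 121 CPM in siCDO1C. Both siRNA groups lay below siCtrl, siCDO1C replicate 2 by a small margin. HSPA13 fell by 19.7% with siCDO1A (log2 fold change -0.32, SE 0.0643, edgeR adjusted p = 0.00206). With siCDO1C it was -0.27 (95% interval -0.45 to -0.10, adjusted p = 0.0693), and without replicate 2 -0.35 (adjusted p = 9.33e-05). Over all single libraries left out, the siCDO1C value ran from -0.35 to -0.225, with an edgeR adjusted p of up to 0.323.

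DNAJB9 (ERdj4, ENSG00000128590, chromosome 7, 108569568 to 108574850), a J-protein that takes part in ER-associated degradation and brings HSPA5 to IRE1, was at 24.9, 24.5 and 21.4 CPM in siCtrl, 16.5, 13.6 and 12.6 CPM in siCDO1A, and 14.6, 18.9 and 15.8 CPM in siCDO1C. All 6 siRNA libraries lay below siCtrl, and the siRNA groups overlapped each other. DNAJB9 fell by 39.9% with siCDO1A (log2 fold change -0.74, SE 0.112, edgeR adjusted p = 1.14e-04), the largest reduction among the 10 genes with this siRNA. With siCDO1C it fell by 30.7% (-0.53, SE 0.119, adjusted p = 0.0185), a call that was lost without siCtrl replicate 1 (adjusted p = 0.112), siCtrl replicate 2 (0.107) or siCDO1C replicate 1 (0.114). The log2 fold change was -0.64 without siCDO1C replicate 2 (adjusted p = 1.6e-04). THAP5 and PNPLA8 on the other strand overlap DNAJB9, with 5707 and 4945 counts in all against its 2219, and neither passed the test with either siRNA (log2 fold changes from -0.21 to -0.070).

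DNAJC3 (p58IPK, ERdj6, ENSG00000102580, chromosome 13, 95677139 to 95794989), a J-protein that binds unfolded proteins through its TPR repeats, was at 57.2, 57.3 and 56.05 CPM in siCtrl, 37.0, 39.1 and 41.5 CPM in siCDO1A, and 39.3, 39.0 and 39.9 CPM in siCDO1C. The siRNA groups had the same mean within their spread, and the gap to siCtrl was several times the spread of either. DNAJC3 fell by 30.9% with siCDO1A (log2 fold change -0.53, SE 0.0746, edgeR adjusted p = 4.51e-05) and by 31% with siCDO1C (-0.54, SE 0.0788, adjusted p = 0.00105). Together with HSPA5 it was called with both siRNAs in every alternative run, and siCDO1C replicate 2 did not stand apart for it (-0.52 without that library, adjusted p = 1.08e-05).

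DNAJB11 (ERdj3, ENSG00000090520, chromosome 3, 186567403 to 186585800) is a soluble J-protein that binds clients and hands them to HSPA5. It was at 51.65, 49.4 and 55.2 CPM in siCtrl, 45.1, 43.9 and 45.1 CPM in siCDO1A, and 33.9, 40.5 and 37.0 CPM in siCDO1C, again 3 groups in this order without overlap. With siCDO1A it was lower by 14.3% (log2 fold change -0.22, SE 0.0744, edgeR adjusted p = 0.0482), a call that did not hold with the replicate block (adjusted p = 0.148), with DESeq2 (0.0547) or without any 1 of siCtrl replicates 1, 2 and 3 and siCDO1A replicates 1 and 2 (0.0692 to 0.178). It was also lost in the edgeR fit of all 9 libraries, without a filter on low counts and with trends of GC content and gene length removed. With siCDO1C it fell by 29.2% (-0.50, SE 0.0906, adjusted p = 0.00471), with an adjusted p of 0.0511 without siCtrl replicate 3 and a log2 fold change of -0.56 (adjusted p = 1.22e-05) without siCDO1C replicate 2. TBCCD1 on the opposite strand overlaps DNAJB11 and had 1025 counts in all against 5528.

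SDF2L1 (ENSG00000128228, chromosome 22, 21642261 to 21644298), a small protein that forms a complex with DNAJB11, was at 49.8, 45.9 and 56.4 CPM in siCtrl, 51.9, 54.65 and 42.7 CPM in siCDO1A, and 33.2, 48.5 and 33.8 CPM in siCDO1C. Replicates 1 and 3 of siCDO1C lay below every siCtrl library and replicate 2 among them. The log2 fold change was -0.033 with siCDO1A (95% interval -0.23 to 0.16, edgeR adjusted p = 0.855) and -0.41 with siCDO1C (95% interval -0.70 to -0.12, adjusted p = 0.103). Without siCDO1C replicate 2 it was -0.61 (adjusted p = 1.1e-05). Over all single libraries left out, the siCDO1C value ran from -0.61 to -0.30, with an edgeR adjusted p of up to 0.334. With trends of GC content and gene length removed, SDF2L1 passed in both comparisons, with log2 fold changes of -0.22 for siCDO1A (adjusted p = 0.012) and -0.50 for siCDO1C (adjusted p = 0.00205).

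DNAJC10 (ERdj5, ENSG00000077232, chromosome 2, 182716041 to 182794464), which joins a J-domain to thioredoxin domains and reduces disulfide bonds, was at 159.7, 162 and 157 CPM in siCtrl, 134, 134 and 145 CPM in siCDO1A, and 119, 125 and 131 CPM in siCDO1C. Both siRNA groups lay below siCtrl, and each siCDO1C library below every siCDO1A library. DNAJC10 was lower by 13.5% with siCDO1A (log2 fold change -0.21, SE 0.0571, edgeR adjusted p = 0.0161), which was lost with the block (adjusted p = 0.0882), with trends of GC content and length removed (-0.094, adjusted p = 0.163), in the edgeR fit of all 9 libraries, and without siCtrl replicate 1 or 2 or siCDO1A replicate 1 or 2 (0.0657 to 0.0861). It fell by 21.9% with siCDO1C (-0.36, SE 0.0701, adjusted p = 0.00798), a call lost without siCtrl replicate 1 (0.0709) or 2 (0.0768) or siCDO1C replicate 1 (0.0624). It was at -0.35 without siCDO1C replicate 2 (adjusted p = 5.23e-05).

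The siRNAs were next compared with each other, which needs no siCtrl library. None of the 10 genes passed in edgeR (0 of 10, where 0.444% of all genes did). An unadjusted p under 0.05 was found for 5 of 10 (HSPA5, HSP90B1, HYOU1, SDF2L1 and DNAJB11, against 7.65% of all genes). DESeq2 called 2 of the 10, HSPA5 and HSP90B1, where it called 104 of the 15555 genes kept. HSP90B1 was lower with siCDO1C than with siCDO1A by a log2 fold change of -0.37 (95% interval -0.56 to -0.18, adjusted p = 0.0998, with the block -0.38 and 0.0156). For HSPA5 this was -0.32 (-0.50 to -0.15, adjusted p = 0.143, with the block -0.32 and 0.0396). Without siCDO1C replicate 2 the adjusted p was 4.16e-05 for HSP90B1 and 3.54e-04 for HSPA5, and SDF2L1 (-0.57, 0.00257) and DNAJB11 (-0.34, 0.044) also passed, where 2.87% of all genes did, and with the block 0.778% did. The libraries of the siRNAs did not overlap, siCDO1C being lower, for HSPA5, HSP90B1, HYOU1, DNAJB11 and DNAJC10 (5 of 10, against 6.36% of all genes).

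For DNAJC10, whose siCDO1C libraries all lay below the siCDO1A libraries, the log2 difference was -0.14 (95% interval -0.31 to 0.025, edgeR adjusted p = 0.756). The libraries of the siRNAs overlapped for the remaining members. DNAJC3 differed by 0.0014 on the log2 scale (95% interval -0.19 to 0.20), HSPA13 by 0.045 (-0.14 to 0.23) and SIL1 by -0.041 (-0.27 to 0.19). DNAJB9 was the gene with the highest value, 0.21 (-0.083 to 0.50, adjusted p = 0.844). The intervals of DNAJC3, HSPA13 and SIL1 allow differences of moderate size in either direction. With siCDO1C that of DNAJC10 allows mainly a lower level, and that of DNAJB9 mainly a higher one.

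The counts were also set against those of HSPA5 in the same library, as a description, since any gene that fell less than HSPA5 is higher on this scale. For every 100 counts of HSPA5 there were 128 to 130.4 of HSP90B1 in siCtrl, 140 to 144 in siCDO1A and 134 to 142 in siCDO1C. For HYOU1 this was 23.5 to 24.0 in siCtrl, 27.3 to 27.6 in siCDO1A and 24.6 to 32.1 in siCDO1C. The client-delivering J-protein DNAJB11 kept close to its proportion, with 3.1 to 3.43, 3.21 to 3.43 and 3.36 to 3.48 counts. DNAJB9 had 1.33 to 1.58 counts per 100 of HSPA5 in siCtrl, 0.959 to 1.18 in siCDO1A and 1.45 to 1.57 in siCDO1C, and DNAJC3 had 3.49 to 3.62, 2.66 to 3.16 and 3.24 to 3.9. With siCDO1A these 2 J-proteins thus lay below their siCtrl proportion to HSPA5 without overlap, which was not so with siCDO1C. SIL1 had 2.05 to 2.49 counts in siCtrl, 2.35 to 2.66 in siCDO1A and 2.97 to 3.13 in siCDO1C. HSPA13 had 8.93 to 10.2, 8.45 to 10.1 and 11.4 to 12.0, so that siCDO1A overlapped siCtrl for both and siCDO1C did not. The same held for DNAJC10, with 9.744 to 10.15, 9.604 to 11.05 and 10.38 to 12.32. SDF2L1 had 2.886 to 3.512, 3.247 to 3.998 and 3.181 to 4.023, overlapping siCtrl with either siRNA. How many of all genes lie without overlap on this scale was not counted.

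The genes most like HSPA5 over the 9 libraries were looked up among 9783 genes with at least 10 CPM, by Pearson's r of log2 CPM, as a description in which the libraries share their groups. DNAJB11 had rank 2 (r = 0.978) and HSP90B1 rank 4 (r = 0.968). The 5 nearest outside the 10 were SURF4 (0.985), a cargo receptor of the early secretory pathway, CALR (0.975), the lectin chaperone calreticulin, STEAP4 (0.968), a metalloreductase, AC009779.2 (0.964) and ATF4 (0.963), the transcription factor downstream of PERK. SURF4 was at 404 ± 11.7, 376.5 ± 9.22 and 333 ± 12.3 CPM (SD, n = 3) in siCtrl, siCDO1A and siCDO1C. Of the remaining members DNAJC10 reached 0.891 and SDF2L1 0.814, while HYOU1, DNAJC3, HSPA13, DNAJB9 and SIL1 were at 0.595 to 0.776. Once the group means were taken off, r with HSPA5 was 0.98 for HSP90B1, 0.872 for SDF2L1, 0.796 for DNAJB11, 0.791 for SIL1, 0.757 for DNAJB9 and 0.504 for HSPA13, but -0.022 for DNAJC10, -0.388 for DNAJC3 and -0.389 for HYOU1. On this scale the 5 nearest genes outside the 10 had 0.612 (STEAP4) to 0.929 (AC009779.2). DNAJC10, DNAJC3 and HYOU1 thus did not follow the variation of HSPA5 between libraries of a group, in which siCDO1C replicate 2 has a large share. How many of all genes follow it as closely as the other members was not counted.

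Lists of related genes place these changes. Each count is set against the share of all genes, which was 7.48% lower and 7.37% higher with siCDO1A, and 2.50% lower and 2.27% higher with siCDO1C. With the block these shares were 4.54%, 4.19%, 2.15% and 1.92%. Without siCDO1C replicate 2, 6.52% of all genes were lower and 6.78% higher with siCDO1C, so that list counts in that setting are read against these larger shares. Of 16 other ER J-proteins and regulators of HSPA5 and HSP90B1, 3 were lower and 1 higher with each siRNA (median log2 fold change -0.077 and -0.12). FICD, which attaches AMP to HSPA5 and removes it, fell by 0.72 with siCDO1A (edgeR adjusted p = 0.00324) and by 0.66 with siCDO1C (adjusted p = 0.0271). SEC63, the J-protein of the translocon, rose by 0.46 (adjusted p = 4.99e-04) and 0.41 (adjusted p = 0.0214), so that not every J-protein of the ER was lower. The siCDO1C calls of both were lost without single libraries, that of FICD without any 1 of siCtrl replicates 1, 2 and 3 and siCDO1C replicates 1 and 3 (adjusted p = 0.0502 to 0.172) and that of SEC63 without any 1 of siCtrl replicates 1, 2 and 3 and siCDO1C replicate 3 (0.052 to 0.13). With the block the siCDO1A count of lower genes in this list was 1.

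Of 35 other ER folding enzymes and lectin chaperones, 5 were lower and 3 higher with siCDO1A, and 9 were lower and 0 higher with siCDO1C (medians -0.049 and -0.17). The genes lower with both were PDIA6, a disulfide isomerase that binds HSPA5 (-0.43 and -0.48), QSOX1, a sulfhydryl oxidase (-0.33 and -0.52), and the lectin chaperones CALR (-0.22 and -0.50) and CANX (-0.17 and -0.31), of which CANX was lost with siCDO1A in the block (adjusted p = 0.118). CANX was also lost without siCtrl replicate 1 or 2 with either siRNA, without siCtrl replicate 3 or siCDO1C replicate 1 with siCDO1C, and without siCDO1A replicate 1 or 2 (0.055 to 0.175), and QSOX1 without siCtrl replicate 2 or siCDO1A replicate 1 (0.0601 and 0.0625 with siCDO1A). The block left 3 of this list lower with siCDO1A, and 16 were lower with siCDO1C without its replicate 2.

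Of 21 UPR sensors, transcription factors and their regulators, 11 were lower with siCDO1A and 7 with siCDO1C, and 0 were higher (medians -0.20 and -0.24). CREB3L1 (-0.65 and -1.19), CREB3L2 (-0.44 and -1.11), HERPUD1 (-0.50 and -0.81), EIF2AK3, which encodes PERK (-0.31 and -0.39), XBP1 (-0.19 and -0.36) and ATF4 (-0.18 and -0.38) were lower with both. XBP1 and ATF4 were lost with siCDO1A in the block (adjusted p = 0.0925 and 0.122). The calls of EIF2AK3, XBP1 and ATF4 were further lost without several single libraries. With siCDO1C this held for siCtrl replicates 2 and 3 and siCDO1C replicate 1 for all 3 genes, for siCtrl replicate 1 for EIF2AK3 and XBP1, and for siCDO1C replicate 3 for XBP1 (0.0688 to 0.126). With siCDO1A it held for siCtrl replicate 2 and siCDO1A replicate 2 for all 3, siCtrl replicate 3 for XBP1 and ATF4, and siCDO1A replicate 1 for EIF2AK3 and ATF4 (0.0537 to 0.132). Leaving out siCDO1C replicate 2 gave 13 genes of this list lower and 1 higher with siCDO1C.

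The corresponding chaperones outside the ER gave other counts. Of 22 HSP70, HSP90 and nucleotide exchange factor genes of the cytosol and mitochondria, 0 were lower and 0 higher with either siRNA in edgeR and in DESeq2 (medians 0.048 and 0.021), with an unadjusted p under 0.05 for 2 with siCDO1A, both higher, and for 0 with siCDO1C. Of this list, 1 was lower with siCDO1C without its replicate 2. The most abundant, HSP90AB1, had log2 fold changes of 0.049 (adjusted p = 0.52) and 0.039 (adjusted p = 0.83). Of 27 J-proteins outside the ER, 1 was lower with siCDO1A (DNAJB4, -0.54, adjusted p = 0.0135) and 0 with siCDO1C in edgeR and in DESeq2 (medians -0.062 and -0.0205). In edgeR 5 had an unadjusted p under 0.05 and were lower with siCDO1A, 2 were higher, and with siCDO1C 2 were lower. For these lists the share of all genes with an unadjusted p under 0.05 against siCtrl was not counted. In this list 1 was higher with siCDO1C without its replicate 2. The most abundant, DNAJA1, was at -0.068 (adjusted p = 0.402) and -0.024 (adjusted p = 0.908).

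**Figure D3:**
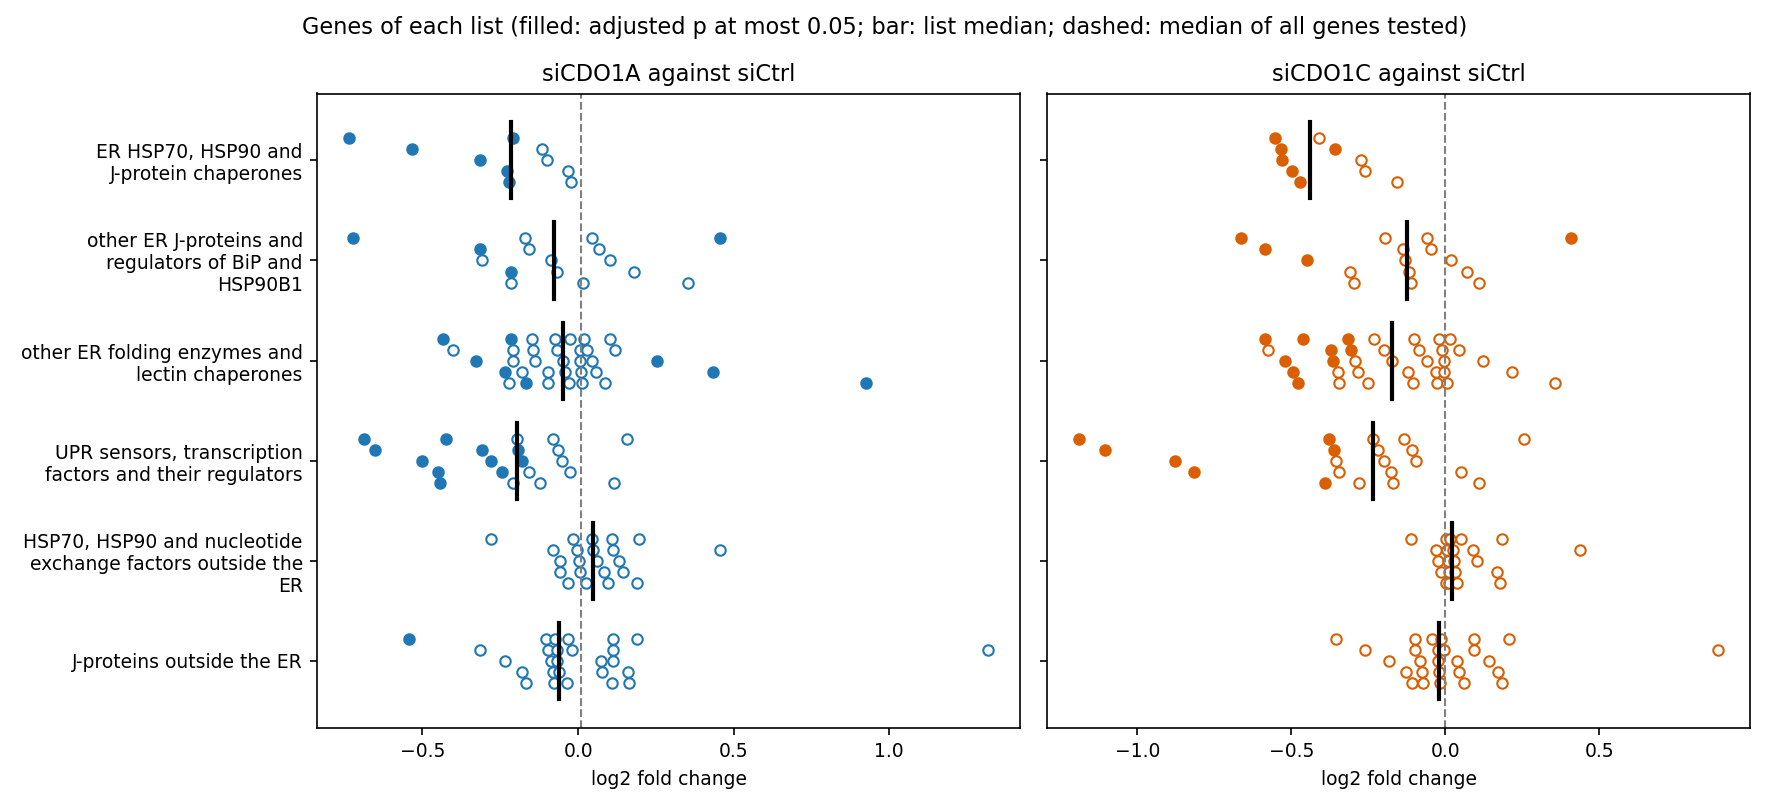
Log2 fold change of each gene of 6 lists with siCDO1A and siCDO1C against siCtrl (filled points for an adjusted p of at most 0.05, bars for list medians, dashed line for the median of all genes tested). The 10 ER chaperone genes lie below 0 throughout in both comparisons. The 22 HSP70, HSP90 and nucleotide exchange factor genes outside the ER have medians of 0.048 and 0.021 and no filled point.

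The promoter letters shown above were followed over all genes with a window. This class was examined after the values of the 10 genes were known, and its counts are a description. Of 10813 tested genes with a window, 8.43% were lower with siCDO1A and 2.7% with siCDO1C. Of the 15 with the ERSE, HSPA5 and HSP90B1 included, 8 were lower and 1 higher with siCDO1A, and 10 were lower and 0 higher with siCDO1C (medians -0.17 and -0.36). The genes lower with siCDO1C were HSPA5, HSP90B1, CALR, CANX, PDIA6, XBP1, CRELD2, SERP1, FICD and TRIM5. Most of these encode ER proteins, but XBP1, a transcription factor of the UPR, and TRIM5, a restriction factor of the cytosol, are exceptions. TRIM5 fell by 0.48 and 0.73 with siCDO1A and siCDO1C. Besides HSPA5 and HSP90B1, the class shares CALR, CANX, PDIA6, CRELD2, ERO1B, XBP1 and FICD with the lists above, so that its counts are not separate from theirs. Without the members, 13 genes with the ERSE remained. Of these, 7 were lower and 1 higher with siCDO1A, and 8 were lower and 0 higher with siCDO1C. With the block 5 of the 15 were lower with siCDO1A and 10 with siCDO1C (4.54% and 2.15% of all genes tested), and 10 were lower with siCDO1C without its replicate 2 (6.52%). Of the 14 with ERSE-II, HYOU1 and SDF2L1 included, 3 were lower and 2 higher with siCDO1A and 1 was lower and 1 higher with siCDO1C. Of the 128 with the UPRE, 19 were lower and 8 higher with siCDO1A, and 4 were lower and 2 higher with siCDO1C, DNAJC10 being lower with both. Within the 10 genes the letters did not sort the calls. Of those with letters, HSPA5 and DNAJC10 were lower with both siRNAs, HSP90B1 with siCDO1C only, and HYOU1 and SDF2L1 with neither. Of those with none, DNAJB9, DNAJB11 and DNAJC3 were lower with both, HSPA13 with siCDO1A only and SIL1 with neither.

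**Figure D4:**
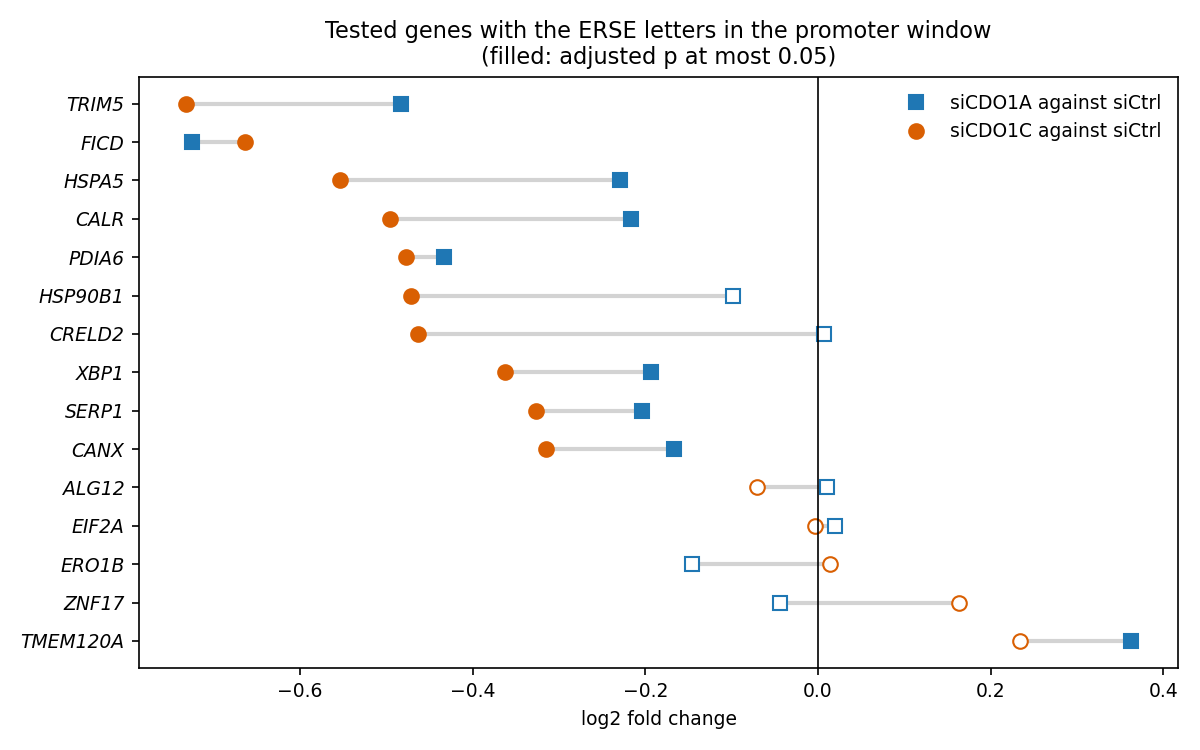
Log2 fold change with siCDO1A (squares) and siCDO1C (circles) against siCtrl of the 15 tested genes with the ERSE letters in the promoter window (filled symbols for an adjusted p of at most 0.05). With siCDO1C 10 of the 15 circles are filled, all of them below 0, and the 5 open circles lie close to 0 or above it, with TMEM120A the highest at 0.23.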

How the data were processed

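RNA-seq counts of 9 VCaP libraries were analysed, 3 for each of siCtrl, siCDO1A and siCDO1C. Per the labels and the study's methods, poly(A) RNA was made into directional libraries and reads were counted per gene with featureCounts. HISAT2 2.0.5 and CASAVA are named in the submitters' processing notes, with the build hg38. The authors deposited raw counts, 1 column a library, and 3 further columns that match no sample were not used. Settings for strand and for reads with several alignments are not given in the sources used here. The coordinates of all 10 genes overlap their RefSeq genes on GRCh38. Levels per length used the gene lengths deposited by the authors.

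Genes were kept by filterByExpr (minimum count 10, 15555 genes), scaled by TMM and tested in edgeR 4.0.16 (R 4.3.3) by its robust quasi-likelihood test on the 6 libraries compared, with Benjamini-Hochberg adjustment over all genes and a threshold of 0.05. Intervals are 95%. On simulated counts of 15555 genes, the siCDO1A and siCDO1C comparisons each recovered 62% of genes changed by a log2 fold change of 0.5, and siCDO1C against siCDO1A 46%. In each simulation 100 genes were changed by 0.5 and 100 by 1, and 14, 14 and 7 unchanged genes were called. Smaller changes were not simulated, and recovery may differ where another number of genes changes.

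The members and lists were chosen with earlier results of these data known. Named genes were the 10 members, CDO1, up to 6 genes per list past the threshold in the same direction with both siRNAs (otherwise the most abundant gene), and the 5 genes nearest to HSPA5. Genes named for an overlap with a member, for the ERSE and DNAJB4 were chosen after their values were seen. Alternatives were DESeq2 1.42.0, another filter or scaling, removal of GC and length trends, a replicate block and leaving out each library. The labels give same-numbered libraries 1 batch number, so the numbers may pair them. Across 11332 genes, deviations from group means of same-numbered libraries correlated between -0.376 and 0.378. One marker list is not reported here.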

Additional observations from a re-analysis of the deposited data

How the results depend on the processing

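Over all alternatives, leaving out single libraries included, siCDO1A gave 4 to 6 members lower and siCDO1C 4 to 9. All genes called ran from 1107 to 3454 and from 263 to 2068 in these (2309 and 742 as reported), from 204 to 1072 with both siRNAs (563) and from 18 to 447 between the siRNAs (69). These totals hold genes called lower and genes called higher, while every member called was lower (with siCDO1C, where the siRNAs were compared). The totals of single settings follow in brackets. Members lower with both siRNAs (5) were 3 in the edgeR fit of all 9 libraries (590 genes) and with the replicate block (415), and 2 at an adjusted p of 0.01 (204). When single libraries were left out they were 2 to 6. There were 2 without siCtrl replicate 1 (219) or 2 (213), and 3 without siCDO1A replicate 1 (472) or 2 (457) or siCDO1C replicate 1 (305). Without siCDO1C replicate 2 there were 6 (1036). Members that differed between the siRNAs (0) were 2 with DESeq2 in all its forms (104 to 187 genes) and in the edgeR fit of all 9 libraries (128). They were also 2 without a filter (147), with GC and length trends removed (178) and with the block (121), and 4 with trends removed and the block (303). When single libraries were left out they were 0 to 4, with 4 without siCDO1C replicate 2 (447). The pairing by batch number thus moved both counts, and beside the calls named with the results it changed no other member's call. The cause of these shifts was not tested.

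Some small log2 fold changes turned sign, all without passing the threshold. Leaving out single libraries put HYOU1 with siCDO1A between -0.0397 and 0.003 and SDF2L1 between -0.1081 and 0.0678, and, with siCDO1C, HSP90AB1 between -0.0094 and 0.0833 and DNAJA1 between -0.0882 and 0.049. Between the siRNAs it put SIL1 between -0.1352 and 0.0338, DNAJC3 between -0.0369 and 0.0593 and HSPA13 between -0.0346 and 0.1118. DNAJC3 was also at -2e-04 with at least 10 counts in every library, -0.0026 among protein-coding genes, -0.0473 with trends removed and -0.0471 with the block added, and HSPA13 at -0.0023 and -0.003 in the last 2. The 3 libraries per group limit all comparisons, and depth limits the low genes such as DNAJB9 most.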
